A study of Equus caballus with 4 samples.

Results

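The neutrophil-attracting CXC chemokines were followed in differentiating equine satellite cells, the muscle stem cells of the horse, that were treated with β-hydroxy-β-methylbutyrate (HMB), a metabolite of leucine. The probes were all non-control probes of the array whose gene name was *CXCL8* (listed as *IL8*), *CXCL1*, *CXCL2*, *CXCL3*, *CXCL5* or *CXCL6*. This gave 8 probes in 12 spots for 3 genes, *CXCL8*, *CXCL1* and *CXCL6*, of 43603 probes and 24998 gene names in all. No probe was named *CXCL2*, *CXCL3* or *CXCL5*. The genes were chosen by their log2 ratios of HMB-treated cells over control on these same 4 arrays, so those ratios are given as a description, without a test.

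The HMB-treated group received 50 µM HMB for 24 h, with 3 mM H2O2 during the last 1 h, and was collected on day 3. The control received the same H2O2 without HMB, so both groups had been exposed to peroxide and cells without peroxide were not analysed here. Each of the 4 arrays carried the cRNA of 1 HMB-treated culture (Cy5) and 1 control culture (Cy3), labelled by the submitters as biological replicates. The cells came from the semitendinosus muscle, and per the methods a single primary culture was chosen for its viability and fusion, so the spread between arrays does not include the spread between horses. The dyes were not swapped, and dye and treatment cannot be told apart.

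CXC chemokines are small secreted proteins. Members that carry the Glu-Leu-Arg motif, among them *CXCL1* to *CXCL3*, *CXCL5*, *CXCL6* and *CXCL8*, bind CXCR1 or CXCR2, or both. These are receptors on neutrophils, and the chemokines draw these cells from the blood into tissue. Their genes lie next to each other in mammals, they are switched on by NF-kB and AP-1 downstream of IL-1, TNF and Toll-like receptors, and their mRNAs are short-lived. Neutrophils are among the first leukocytes to enter damaged muscle.

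All 8 probes gave a higher signal in the HMB-treated group on every array. The mean log2 ratios of HMB-treated cells over control lay between 5.25 and 7.60, and 1 probe per gene, the tested one with the highest log2 signal averaged over both channels and all arrays, gave FC of 83.6 for *CXCL1*, 65.8 for *CXCL6* and 37.9 for *CXCL8*. The control signal was dim. The Cy5 channel was well above background on 4 of 4 arrays for all 8 probes, whereas the Cy3 channel was so on 4 of 4 arrays for 0 probes and on none of the arrays for 3 probes. The size of these ratios therefore rested on control signals at or near the background, and it shrank with other background corrections, as given for each gene. All 8 probes entered the tested set through the HMB channel alone, and the ratios had chosen the genes, so no test is given. Of the 24648 probes tested, 28.6% passed the limma threshold (adjusted p of 0.05 or less and FC of 1.3 or more), 12.1% upward and 16.4% downward.

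The best covered gene was *CXCL8*, interleukin 8, the prototype neutrophil attractant. A group of 5 of its 6 probes was shifted by 1 base from one to the next at chr3:37422771-37423112 (EquCab1), each 60 bases long over 338 bases of genome, so that each crossed an exon junction. The first and the last of them are shown because the capitals, the 56 bases that all 5 share, make clear that these probes read the same stretch of mRNA and are not independent measurements.
A_69_P004855: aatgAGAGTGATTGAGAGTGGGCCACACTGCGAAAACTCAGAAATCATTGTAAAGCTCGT
A_69_P004851: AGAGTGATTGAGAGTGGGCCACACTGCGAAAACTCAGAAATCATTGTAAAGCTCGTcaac

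The log2 ratios of A_69_P004851, which stands for the gene because its log2 signal averaged over both channels was the highest of all 6, were 5.96, 5.01, 5.0 and 5.02 on replicates 1 to 4, with a mean of 5.25 ± 0.48 (SD, n = 4). Replicate 1 lay apart from the other 3 arrays. The log2 ratios of A_69_P004852 were 5.61, 5.11, 5.32 and 5.30, those of A_69_P004853 were 5.56, 5.10, 5.36 and 5.27. Those of A_69_P004854 were 5.63, 5.93, 5.49 and 4.91, and those of A_69_P004855 were 5.64, 6.05, 5.67 and 6.02. The means of the 5 probes ran from 5.25 to 5.84, although neighbouring probes differed by a shift of 1 base.

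The spread among these probes was on the control side. The Cy5 signals of the 5 probes lay between 1059 and 1171 on replicate 1, 802 and 916 on replicate 2, 1318 and 1448 on replicate 3, and 871 and 973 on replicate 4. The Cy3 signals lay between 17.5 and 23.9, 12.5 and 27.7, 25.9 and 45.3, and 13.4 and 31.3 on the same arrays. Among the 20 Cy3 values, 6 were well above background, on replicates 3 and 4 for A_69_P004851 and A_69_P004854 and on replicates 1 and 3 for A_69_P004852. The Cy3 channel of A_69_P004855 and A_69_P004853 was not well above background on any array. As a bound, the control was set to the higher of its own signal and the dimmest signal well above background. With the deposited background correction this gave levels 46.1-fold and 40.1-fold higher in the HMB-treated group. Measured FC were 57.5 and 40.1. For A_69_P004853 the control's own signal exceeded that dimmest signal on all arrays, so the bound equals the measured FC. Such bounds are not minima, since they hold for the deposited correction alone. In the same order, the log2 ratios were 2.81 and 2.65 with normexp, another background correction, and 3.42 and 3.32 without background correction. The bounds compare the channels after normalization and remain open to dye bias.

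**Figure D1:**
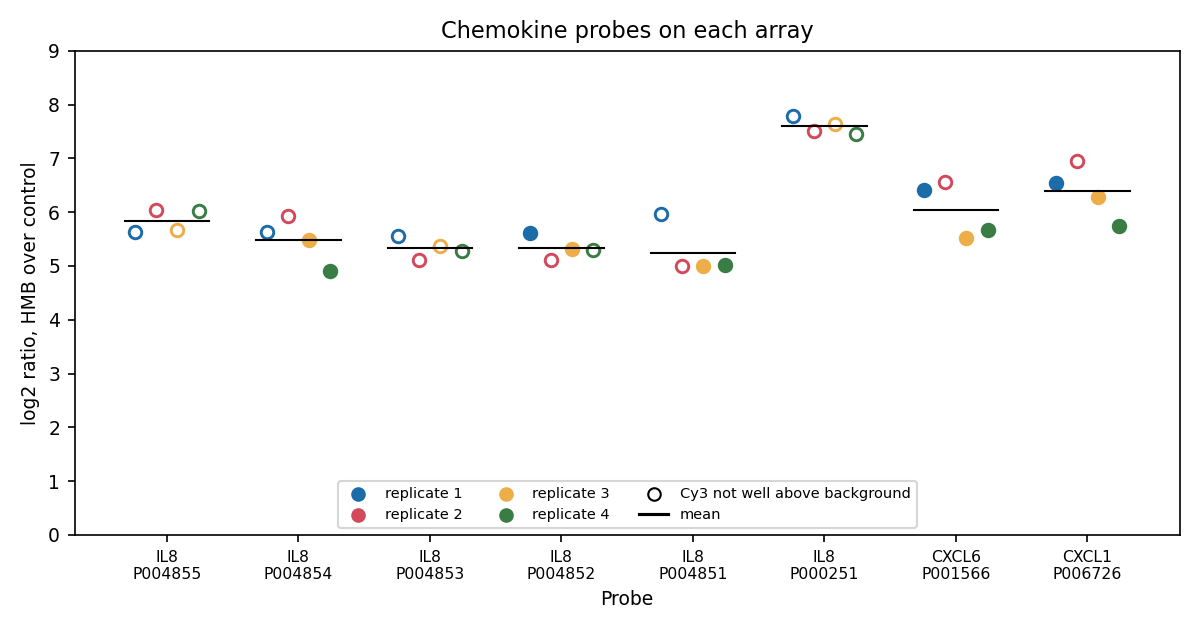
The log2 ratio of HMB-treated cells over control (vertical axis) is plotted for each of the 8 chemokine probes (horizontal axis) on each of the 4 arrays, with the mean as a line. Open circles are arrays on which the control channel was not well above background. All values lie above 4.9, and the probe A_69_P000251 lies above the other *IL8* probes on all 4 arrays.

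The 6th *CXCL8* probe, A_69_P000251, lay downstream at chr3:37424174-37424233 and was printed in 5 spots per array. Its log2 ratios, averaged over spots, were 7.79, 7.51, 7.63 and 7.46, with a mean of 7.60 ± 0.15 (SD, n = 4). These averages lay above all ratios of A_69_P004851, by 2.35 ± 0.36 (SD, n = 4), but the control channel of A_69_P000251 was not well above background on any array, so the size of that difference was not measured. The 5 spots on an array held the same probe and the same RNA, and yet their ratios ran from 5.75 to 8.46 over the 20 values, a range that overlaps that of A_69_P004851. In 13 of the 20 the scanner software had replaced the Cy3 signal by a surrogate, and 1 of the 20, on replicate 4, was well above background in Cy3.

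The spot at 1 position stood apart on 3 of the 4 arrays. On replicate 4 its Cy3 signal of 27.0 went with the lowest log2 ratio, 5.75, whereas the remaining 4 spots had Cy3 signals from 6.34 to 6.62 and ratios from 7.65 to 8.46. On replicate 1 the same spot had a Cy3 signal of 20.3 and a ratio of 6.47. On replicate 3 it had 24.1 and 6.56, and another spot had a Cy3 signal of 16 and a ratio of 7.0, against ratios from 8.07 to 8.36 in the remaining 3. On replicate 2 its Cy3 signal was a surrogate of 5.99 and its ratio of 7.87 was the highest of the 5. Averaged over spots, the measured FC was 194 and the bound computed as above was a log2 ratio of 6.29, but the 1 spot with a control well above background lay below that bound, so no minimum is given for this probe.

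**Figure D2:**
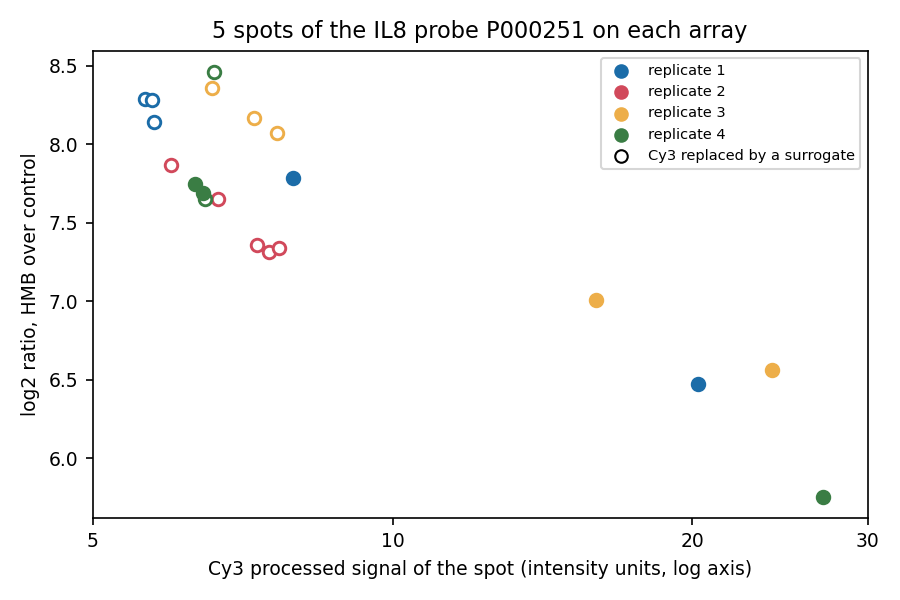
Each point is 1 of the 5 spots of the *IL8* probe A_69_P000251 on 1 of the 4 arrays. The horizontal axis is the spot's Cy3 signal (control) in intensity units on a log scale and the vertical axis its log2 ratio. Open circles are spots with a surrogate Cy3 signal. The spot with the highest Cy3 signal, 27.0, has the lowest ratio, 5.75, and the surrogate Cy3 signals all lie at the left, with ratios of 7.31 or more.

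The gene *CXCL1*, first described as a melanoma growth stimulatory activity, had 1 probe, A_69_P006726, at chr3:37672032-37672091. Its log2 ratios were 6.55, 6.96, 6.28 and 5.75, with a mean of 6.39 ± 0.51 (SD, n = 4). Replicate 2 was the highest and replicate 4 the lowest. The Cy5 signals were 5475, 3289, 5334 and 2951 and the Cy3 signals 58.5, 26.4, 68.5 and 54.8. Replicate 2, with the highest ratio, had the lowest Cy3 signal and was the 1 array on which Cy3 was not well above background.

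The gene *CXCL6*, granulocyte chemotactic protein 2, also had 1 probe, A_69_P001566, at chr3:37503335-37503394. Its log2 ratios were 6.41, 6.57, 5.53 and 5.66, with a mean of 6.04 ± 0.52 (SD, n = 4). Replicates 1 and 2 were high, and replicates 3 and 4 about 1 unit lower. The Cy5 signals were 2537, 1823, 2173 and 2047 and moved little, whereas the Cy3 signals were 29.8, 19.2, 47.1 and 40.4. Cy3 was again not well above background on replicate 2.

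**Figure D3:**
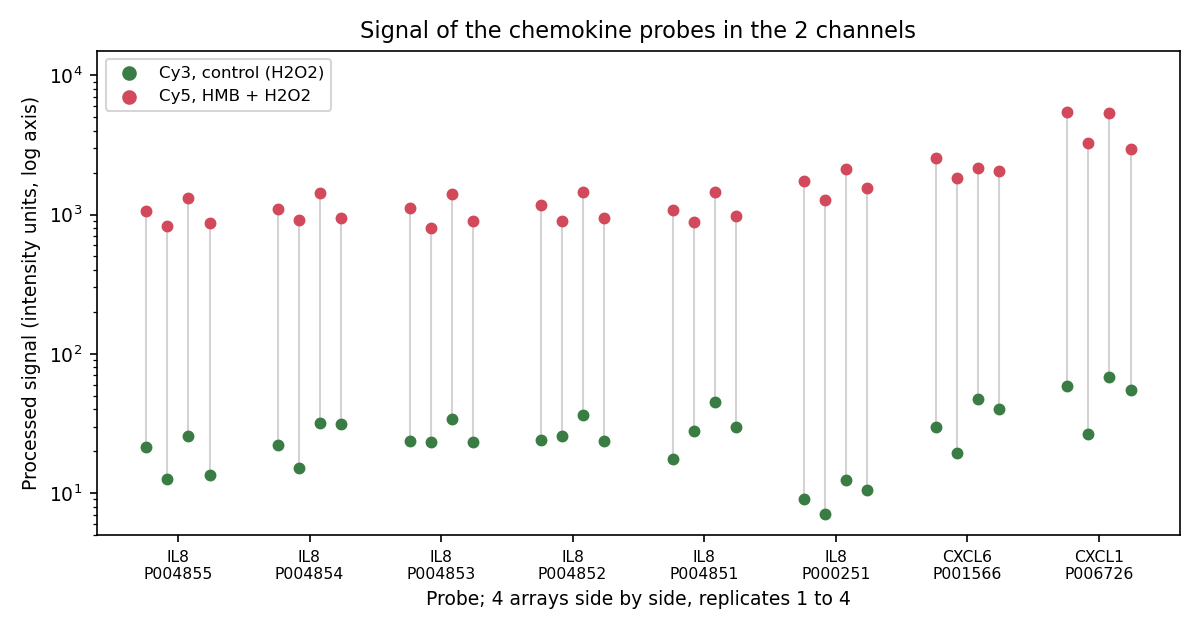
Processed signals of the 8 chemokine probes in the control (Cy3, green) and in the HMB-treated group (Cy5, red) are plotted in intensity units on a log axis, with a grey line joining the channels of 1 array. The Cy5 signals lie between 802 and 5475 and the Cy3 signals between 7.04 and 68.5. Levels of different probes are not to be set against each other.

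The mean ratios ran in the order *CXCL1*, *CXCL6* and *CXCL8*, with A_69_P004851 for *CXCL8*. The *CXCL1* ratio was above that of *CXCL6* by 0.34 ± 0.30 and above that of *CXCL8* by 1.14 ± 0.62, and the *CXCL6* ratio was above that of *CXCL8* by 0.80 ± 0.52 (differences in log2 ratio; SD, n = 4). These differences include arrays on which the control was not well above background, replicate 2 for all 3 probes and replicate 1 for *CXCL8*, and do not rank the genes. On replicates 3 and 4, where all 3 controls were well above background, the ratios were 6.28 and 5.75 for *CXCL1*, 5.53 and 5.66 for *CXCL6*, and 5.0 and 5.02 for *CXCL8*. The order also depended on the probe and on the background correction. A_69_P000251 had a higher mean ratio than the *CXCL1* and *CXCL6* probes with the deposited correction, but a lower one than both with normexp (3.58) and without background correction (4.29). Among the tested probes, 12 had a higher mean ratio than the *CXCL1* probe, 20 than the *CXCL6* probe and 39 than A_69_P004851. A log2 ratio of 4 or more on all 4 arrays occurred in 73 of the tested probes (0.296%), among them the 8 chemokine probes and 9 neighbouring probes on chromosome 3 that bore other names. The 8 include 6 probes of *CXCL8*, and the ratios had chosen the genes. These ranks and counts are therefore a description, and nothing is read from them.

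With other background corrections the log2 ratios were smaller. With normexp they were 4.50 for *CXCL1*, 3.81 for *CXCL6* and 2.95 for *CXCL8*, and without background correction 5.08, 4.34 and 3.55. The deposited correction had given log2 ratios of 6.39, 6.04 and 5.25 for the same 3 genes. No sign changed, and *CXCL8* by A_69_P004851 stayed the smallest of the 3.

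All 3 genes lay within 249321 bases of chromosome 3, in a stretch that held further chemokine probes outside the naming rule. Probes were included here when their description named a chemokine of the set or when they lay in the stretch, and the latter were singled out after their values had been seen. Transcript ENSECAT00000010991, described in the files as C-X-C motif chemokine 2, had 4 probes at chr3:37671962-37672091. Their mean log2 ratios were 6.25, 6.38, 6.51 and 6.04. The first 3 had a control well above background on 2 or 3 of the 4 arrays and passed the filter on dim signals through the HMB channel alone, so no test is given for them.

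One of these 4, A_69_P003486, had the same coordinates as the *CXCL1* probe, and its letters matched at 57 of 60 positions. The last 30 bases of both are shown, positions 31 to 60 of each probe, with the 3 differing letters in capitals (A44T, T50A and C57T, counted from 1 at the 5′ end, the *CXCL1* probe's letter first).
CXCL1: tgatgttgaagctAtaaaaTctacgaCgtt
ENSECAT00000010991: tgatgttgaagctTtaaaaActacgaTgtt

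The log2 ratios of A_69_P003486 were 6.42, 6.12, 5.87 and 5.75. They were lower than those of the *CXCL1* probe by 0.35 ± 0.37 (SD, n = 4), a difference within its spread, and Cy3 was well above background on 4 of 4 arrays. It was called higher (limma adjusted p = 1.33e-06), which is not independent of the *CXCL1* probe's ratio. Probes this alike can bind each other's transcript, and the signals of the 2 names were not separated here. A run of 20 bases or more shared with a probe of another name was found for the *CXCL1* probe alone among the 8, with 2 probes of this transcript.

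The names in the files and the gene order of RefSeq (assembly TB-T2T) differed at this place. RefSeq lists, from one end of the stretch, *CXCL1*, *MIP-2BETA*, *CXCL2*, the gene of the *PF4* probes, *PPBP*, *CXCL6* and *CXCL8*, with 2 non-coding genes before *CXCL2*. On the array the order from the same end was the *CXCL1* probe together with ENSECAT00000010991, then *MIP-2BETA*, then transcript ENSECAT00000012809, *PF4*, *PPBP*, *CXCL6* and *CXCL8*. By neighbour order alone, the probes described as chemokine 2 took the place at which RefSeq has *CXCL1*, and the unnamed ENSECAT00000012809 took that of *CXCL2*. The builds differ and no sequence of the assembly was used.

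Transcript ENSECAT00000012809, an uncharacterized protein in the files, had 3 probes at chr3:37558123-37558335. Their mean log2 ratios were 4.72, 4.92 and 6.15, given without a test because these probes too passed the filter through the HMB channel alone. The 3rd was not well above background in Cy3 on any array. Its bound, computed as above with the deposited background correction, was a level 43.0-fold higher in the HMB-treated group.

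The gene *MIP-2BETA*, described as *CXCL3*, another CXCR2 ligand, had 1 probe, A_69_P083376, at chr3:37659696-37660545, and each array measured it well above background in either channel. The Cy3 signals were 65.0, 61.8, 69.7 and 55.4 and the Cy5 signals 859, 707, 829 and 452. The log2 ratios were 3.72, 3.52, 3.57 and 3.03, with a mean of 3.46 ± 0.30 (SD, n = 4), which passed the threshold (limma adjusted p = 6.66e-06). For this gene the control was not at the background, but the size of the ratio still depended on the background correction. The log2 ratio was 2.11 with normexp and 2.57 without background correction.

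A second probe in the same place gave another result. The probe A_69_P004986, of the partial sequence AF426155 described as macrophage inflammatory protein 2-like, lay at chr3:37659684-37659743 and shared 40 bases with the *MIP-2BETA* probe. The *MIP-2BETA* probe went on over an exon junction, its coordinates spanning 850 bases, whereas the AF426155 probe ran on in the genome. Both are shown with the shared 40 bases in capitals.
MIP-2BETA: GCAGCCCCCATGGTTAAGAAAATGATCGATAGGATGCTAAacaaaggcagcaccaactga
AF426155: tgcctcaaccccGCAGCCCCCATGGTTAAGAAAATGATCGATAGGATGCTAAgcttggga

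The log2 ratios of the AF426155 probe were 0.49, 0.45, 0.56 and 0.34, with a mean of 0.46 ± 0.09 (SD, n = 4; limma adjusted p = 0.00229). Its Cy3 signals were 1974, 2037, 1944 and 1136 and its Cy5 signals 2764, 2787, 2873 and 1437. The *MIP-2BETA* ratio exceeded it by 3.00 ± 0.23 (SD, n = 4), on 4 of 4 arrays. It was not called with limma treat, nor with the arrays scaled to spike-in RNA, where its ratio was −0.10 and that of *MIP-2BETA* was 2.85. With normexp the *MIP-2BETA* ratio was 2.11 and still called.

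Further probes in the stretch carried no gene name and are given without a test, because they were singled out after their values had been seen. JL639438, whose accession the *CXCL6* probe also lists, lay close to it at chr3:37503809-37503868 and had log2 ratios of 7.44, 7.47, 6.79 and 6.92, with a mean of 7.15, and its control was well above background on 3 of 4 arrays. JL628765, at chr3:37424493-37424552 beyond the downstream *CXCL8* probe, had log2 ratios of 4.63, 4.25, 4.38 and 4.26, with a mean of 4.38, and neither channel was dim. Between the tiled and the downstream *CXCL8* probes lay 2 probes of CD535352, with much smaller ratios. A_69_P103021 had 1.54, 0.63, 1.13 and 1.03, with a mean of 1.08. A_69_P103022 had 3.64, 0, 3.30 and 2.06, was dim in Cy3 on all arrays and did not pass the filter on dim signals.

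Not every gene of the stretch was called higher. The 5 probes of *PF4*, platelet factor 4, a CXC chemokine without the Glu-Leu-Arg motif, were well above background in both channels and had mean log2 ratios from 0.06 to 0.21, none of them called (limma adjusted p from 0.118 to 0.595). With spike-in scaling its probe of highest mean signal had −0.41 and was called lower. The 5 probes of *PPBP*, platelet basic protein, were not well above background in Cy5 on any array, and 1 of them was so in Cy3 on replicate 3.

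**Figure D4:**
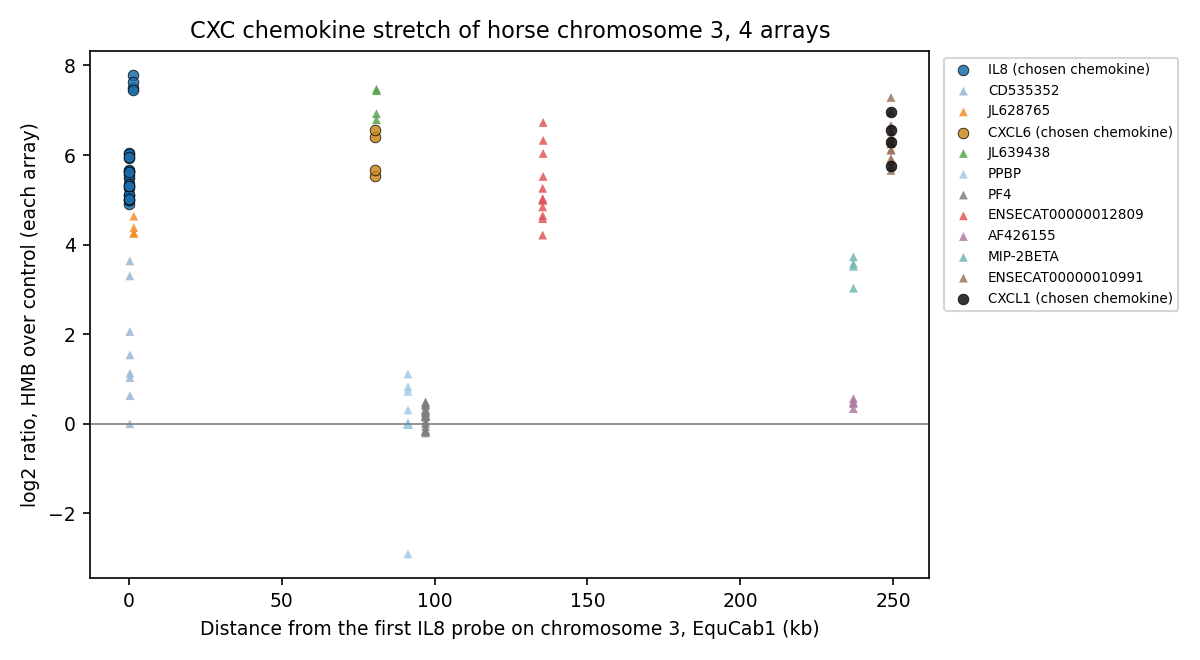
The log2 ratio on each of the 4 arrays (vertical axis) is plotted against the distance from the first *IL8* probe on chromosome 3 in kb (horizontal axis). Circles are the 8 probes of the chosen chemokines and triangles are other probes of the stretch. The *PF4* and AF426155 probes lie near 0 between probes with log2 ratios above 3.

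The receptor *CXCR1* had no probe on the array, and its level is not known here. The *CXCR2* probe had log2 ratios of −1.30, −1.24, −0.16 and −0.72 but passed the background limit on 1 array in Cy3 and on 0 arrays in Cy5, and was not tested. The probe of *ACKR1*, which binds chemokines without signalling, and that of *SDC1*, a heparan sulfate carrier, were not tested either. Of the tested surface binders, *SDC4* rose by 0.66 ± 0.14 (log2 ratio; SD, n = 4; limma adjusted p = 9.56e-04) but was not called with spike-in scaling, and *SDC2* had a log2 ratio of −0.09 ± 0.63 (limma adjusted p = 0.76). With spike-in scaling *SDC2* had −0.62 (limma adjusted p = 0.0336), beside a median of −0.67 over all tested probes.

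The other genes were counted from lists of factors that act on, or together with, these chemokines. The lists were chosen with earlier results of these data known, so the counts are a description and not independent of these ratios. Of 55 genes, 43 had a probe and 27 passed the filter on dim signals, and 17 of these were called higher and 0 lower, beside 12.1% higher and 16.4% lower over all tested probes. Those 17 include *NFKBIZ*, which passed the filter through the HMB channel alone. With both channels required to be well above background, 16 were called higher and 0 lower, beside 2544 and 3322 of 22633 probes. The median log2 ratio of the tested genes was 0.52, beside −0.07 over all tested probes. With spike-in scaling, under which the median of all tested probes was −0.67, 5 were called higher and 9 lower, beside 4.09% and 77.7% of all tested probes. The direction of small ratios therefore depended on the scaling.

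Of the inducing cytokines and their receptors, 4 of 6 tested genes were called higher. The largest ratio was that of *MYD88*, the adaptor of Toll-like and IL-1 receptors, at 1.55 ± 0.21 (limma adjusted p = 7.08e-05). The adaptor of the IL-17 receptor *TRAF3IP2* had 0.77 ± 0.14, the receptor subunit *IL17RC* 0.65 ± 0.21 and *TLR4* 0.52 ± 0.08 (log2 ratios; SD, n = 4; limma adjusted p from 4.84e-04 to 0.00219). With spike-in scaling the ratios of *IL17RC* and *TLR4* were −0.089 and −0.078, and *TRAF3IP2* was not called. The call of *IL17RC* was also lost with normexp, without background correction and with limma treat, and that of *TLR4* with limma treat. A second *TLR4* probe gave a larger ratio of 1.97. The cytokine *TNF* had a log2 ratio of 0.02 ± 0.18, and *IL1A*, *IL1B* and *IL17A* did not pass the filter on dim signals and were not tested. The *IL1A* probe A_69_P000081 was well above background in Cy5 on 3 of 4 arrays and in Cy3 on 1. Its log2 ratios were 0.39, 3.12, 3.24 and 0.85.

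Of the transcription factors and their inhibitors, 8 of 10 tested genes were called higher. The largest ratios belonged to members of the IkB family, whose genes NF-kB itself induces. The log2 ratios of *NFKBIZ* were 3.12, 4.03, 3.94 and 3.46, with a mean of 3.64 ± 0.42. Its control was well above background on 3 of 4 arrays, so it passed the filter on dim signals through the HMB channel alone. No test is given for it, although the count includes it. Those of *NFKBIA*, which holds NF-kB in the cytoplasm, were 1.90, 2.02, 2.35 and 1.89, with a mean of 2.04 ± 0.21 (limma adjusted p = 2.37e-05). The NF-kB subunits *NFKB1* and *RELB* had 0.95 ± 0.16 and 0.90 ± 0.32 (SD, n = 4; limma adjusted p of 2.94e-04 and 0.00191), but neither was called with spike-in scaling, nor *RELB* with normexp. The subunit *RELA* had 0.16 ± 0.35 and was not called.

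Of the mRNA decay and stability factors, 1 of 5 tested genes was called higher. It was *DUSP1*, a phosphatase that inactivates p38 MAP kinase, at 0.83 ± 0.18 (limma adjusted p = 6.21e-04), which was not called with spike-in scaling. The stabilizing factor *ELAVL1* and the decay factor *KHSRP* had log2 ratios of −0.31 and −0.19 (limma adjusted p of 0.0138 and 0.0883) and did not reach the FC threshold.

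Of the other factors that act on neutrophils, 3 of 4 tested genes were called higher. The log2 ratios of *IL6*, a cytokine of the acute phase, were 4.53, 4.35, 4.41 and 3.99, with a mean of 4.32 ± 0.23 (limma adjusted p = 1.61e-06). Those of *PTGS2*, the inducible cyclooxygenase, were 3.38, 3.52, 4.29 and 3.29, with a mean of 3.62 ± 0.45 (limma adjusted p = 2.43e-05). The gelatinase *MMP9* had 0.59 ± 0.24 (limma adjusted p = 0.00458) and was not called with normexp, with spike-in scaling, with limma treat or in the methods' t-test.

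**Figure D5:**
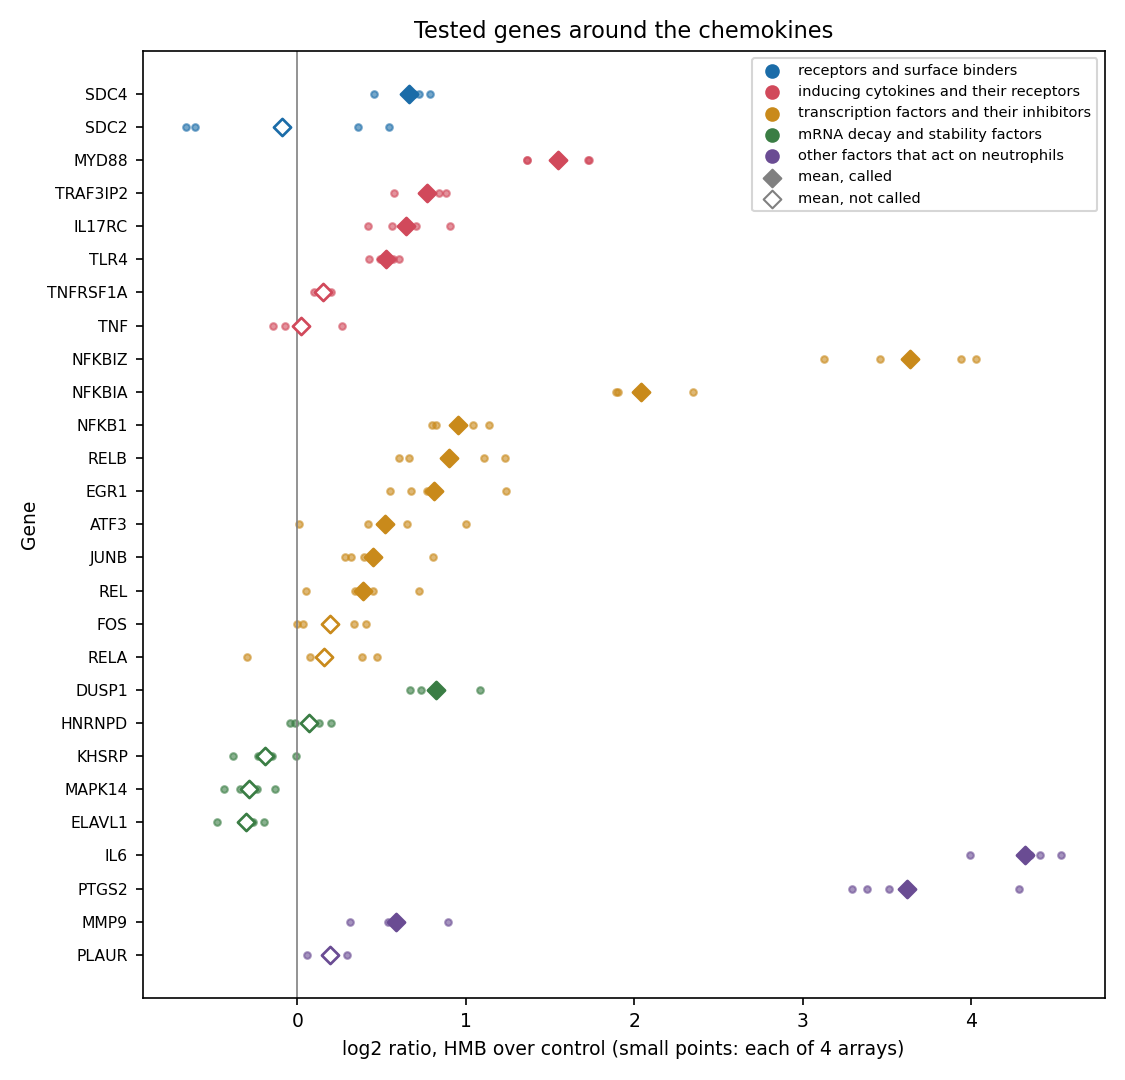
The log2 ratio of each tested gene of the 5 lists is plotted on the horizontal axis, with the 4 arrays as small points and the mean as a diamond, filled where the gene was called. *IL6*, *NFKBIZ* and *PTGS2* have means above 3.6, and no called gene lies below 0.

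The profile of the chosen chemokines was taken as their median on each of the 4 arrays, which was the *CXCL6* ratio every time. It includes replicate 2, on which the *CXCL6* control was not well above background. Among 8133 other named genes *CXCL10* lay nearest to it, with a root mean square difference of log2 ratios of 0.45. This measure compares the ratios themselves, so genes with ratios of similar size come first. Next came *VCAM* (0.67), *RSAD2* (0.78), *CCL20* (0.80) and *IFIH1* (0.80). Their mean log2 ratios were 6.18, 5.51, 5.37, 6.77 and 5.36, and the control channel was well above background on every array for each of them but *RSAD2*, for which it was so on none.

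The 2 groups also differed in markers of cell types. Of 6 tested satellite and muscle cell markers 4 were called lower (*MYF5*, *DES*, *NCAM1* and *MYH3*), beside 16.4% of all tested probes. Of 5 tested fibroblast markers 4 were called higher, beside 12.1% of all tested probes. The latter 4 had log2 ratios of 0.42 (*LUM*), 0.76 (*THY1*), 0.77 (*DCN*) and 1.49 (*PDGFRA*). The muscle markers *MYOD1* and *MYOG*, with 0.32 and 0.03, and the fibroblast marker *COL3A1*, with 0.06, were not called. A second *MYOD1* probe had −0.11, and 3 of the 7 *COL3A1* probes were called higher. The markers were not examined with spike-in scaling, on which the direction of small ratios depended. The summed signal of the muscle markers was 103528 to 117933 in Cy3 and 36404 to 59462 in Cy5, and that of the fibroblast markers 194234 to 222836 and 223303 to 339797. Of 6 leukocyte markers with a probe, *CD68* alone was tested and called higher, and *ITGAM*, *CD3E* and *MPO* were not well above background on any array. The 6 endothelial markers were not tested, for dim signals. The summed leukocyte signal was 124 to 219 in Cy3 and 149 to 291 in Cy5. In such bulk samples a change in the number of cells of a type and a change in RNA per cell cannot be told apart, and the part of either in the chemokine ratios was not tested.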

How the data were processed

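Gene expression was measured on 4 two-colour 4x44K horse arrays with 60-base probes. Per the file headers, Feature Extraction 10.10.1.1 made the scanner files. The authors deposited background-subtracted, lowess-normalized processed signals (intensity) and their log10 ratio of Cy5 over Cy3. The deposited table of the series holds the same log10 ratios. Coordinates are those of the EquCab1 build in the files.

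The log10 ratios were multiplied by 3.32 to give log2 ratios. Left out were control spots and any spot that the software marked as a non-uniformity or population outlier, and spots of a probe were averaged. A probe was tested if the same channel, Cy3 or Cy5, was called well above background on each of the 4 arrays (for repeat spots, in at least 50% of them), which left 24648 of 43603 probes. Ratios were fitted against 0 with limma 3.58.1 (R 4.3.3) and Benjamini-Hochberg adjustment over all tested probes. A probe was called at an adjusted p of 0.05 or less and FC of 1.3 or more. Where a gene had more than 1 probe, the tested one with the highest mean log2 signal over both channels stands for it. Between 55.2% and 61.8% of the spots were well above background per channel, saturated spots numbered 0, and the number of arrays limits the precision.

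On simulated data with 24648 probes and 200 changed, limma recovered 164, with 3 false calls. Bounds used the dimmest signal well above background, per channel after Aquantile scaling. Named were all chemokine probes, all receptors, up to 4 called genes per list with the largest ratio and the same sign on all arrays, the 5 genes of nearest profile, and probes described as a chemokine of the set. The chemokines and lists were chosen with earlier results of these data known. Each array holds both groups, so slide does not separate them. Promoters and protein sequences were not used here.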

Additional observations from a re-analysis of the deposited data

Results flagged for a closer look

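In the probes of the chemokine stretch and the named genes, 39 sets of 4 arrays were examined for 1 array far from the other 3, and chance flags about 1 in 20 such sets. The *IL8* probe A_69_P004851 had a log2 ratio of 5.96 on replicate 1, against values from 5.0 to 5.02 on the other arrays. The ENSECAT00000012809 probe A_69_P115041 had 4.65 on replicate 3, against 4.98 to 5.02. The *PPBP* probe A_69_P083395 had −2.91 on replicate 3 and a ratio of exactly 0 on the other 3, where neither channel was well above background.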

How the results depend on the processing

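The log2 ratios of *CXCL1*, *CXCL6* and *CXCL8* were 4.50, 3.81 and 2.95 with normexp, 5.08, 4.34 and 3.55 without background correction, and 5.79, 5.43 and 4.62 with spike-in scaling, with the *CXCL6* value as the median each time. The mean over all tested *CXCL8* probes was 5.81. With both channels required to be well above background none of the 8 probes passed, so no value could be had. Without 1 replicate at a time, *CXCL1* ran from 6.19 to 6.60, *CXCL6* and the median from 5.87 to 6.21, and *CXCL8* from 5.01 to 5.33. The cause of these shifts was not tested.

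Called probes numbered 7042 (2994 higher, 4048 lower, 42.5% higher). They were 3536 with normexp (1944 and 1592, 55.0% higher), 4438 without background correction (1769 lower, 60.1% higher), 20150 with spike-in scaling (1008 and 19142, 5.0% higher) and 2821 with limma treat (1542 and 1279, 54.7% higher). Without 1 replicate they were 6663 to 7366, with 2736 to 3269 higher and 3927 to 4124 lower. Pathway genes called higher were 17, with 5 under spike-in scaling (and 9 lower), 11 with treat and 14 to 16 without 1 replicate, with 0 lower in the last. The methods' t-test called 5030 probes (2099 higher and 2931 lower) and 13 pathway genes, all after Benjamini-Hochberg correction.

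The sign turned under spike-in scaling for *PF4* (−0.41), AF426155 (−0.095), *IL17RC* (−0.089), *TLR4* (−0.078) and *MMP9* (−0.053), and for *SDC2* with median centring (0.026). Without 1 replicate *SDC2* ran from −0.30 to 0.098, with the sign turned without replicate 1 (0.098) or replicate 2 (0.081). The ratio on each array already pairs 1 HMB-treated with 1 control culture, so the fit against 0 is the paired analysis, and no fit without the pairing was made. The dim control signal limits how well the size of the chemokine ratios is known.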
